A study of Sparus aurata with 16 samples.

Results

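Acetyl-CoA carboxylase makes malonyl-CoA from acetyl-CoA. The expression of its 3 transcripts on the array, ACC1tv1, ACC1tv2 and ACC2, was followed in liver and white skeletal muscle of gilthead sea bream (Sparus aurata) that were starved or fed 1 of 3 diets. The members were all non-control spots that carry 1 of these names, which gave 3 of the 25225 sequences on the array, with 2 probes per transcript and 2 spots per probe, so 4 spots per transcript and array. The names mark ACC1tv1 and ACC1tv2 as variants of ACC1. The gene table of the RefSeq assembly fSpaAur1.1 lists 1 gene under acaca (ACC1), with 16 transcript models, and 1 gene under acacb (ACC2), with 7. The array files hold no probe sequence, so no probe could be placed on any of these models and none of their sequences is shown.

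In vertebrates, ACC1 is the cytosolic form, and its malonyl-CoA is the building block for fatty acid synthesis, a pathway of the fed liver. ACC2 is anchored at the outer mitochondrial membrane, where its malonyl-CoA inhibits carnitine palmitoyltransferase 1 and with it the entry of long-chain fatty acids into mitochondria for oxidation. In mammals ACC2 is the main form in skeletal and heart muscle.

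Juvenile fish received the diet HLL, MHL or LLH once a day for 23 days at 25 g per kg body weight, and the group Starved received no food over the same days. The letters of a diet give its content of protein, lipids and carbohydrates in that order, as high, medium or low. Total RNA of 4 fish per group and tissue was labelled with Cy5 or Cy3 and hybridised in pairs on 16 two-colour arrays, 8 for each tissue, so that each fish appeared once per tissue and 2 fish of every group carried each dye. The labels do not say whether the fish with 1 number is the same animal in liver and muscle, nor how the fish of a group were spread over aquaria, and p-values therefore measure the spread between these fish.

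For the Cy5 fish of 1 liver array, called array D here, the title names HLL and the source name LLH. It was taken as HLL fish 1, which gives 4 fish in every group, and the results that change with the other reading are given with both. Each tissue had a slide of its own with 8 arrays and all 4 groups, so slide and tissue cannot be told apart. The share of spots well above background ranged from 57.9 to 66.6% over the liver channels and from 56.0 to 65.3% over the muscle channels. PKL, the liver-type pyruvate kinase, read 10.08 ± 0.29 on the log2 scale in the livers of fed fish and 7.20 ± 0.21 in their muscle (SD, n = 12). PKM, the muscle-type enzyme, read 6.34 ± 0.07 in liver and only 6.48 ± 0.05 in muscle, so this marker did not set the muscle clearly apart. No other tissue marker carries a symbol on the array. In whole tissue, fewer cells of a type and less RNA per cell cannot be told apart.

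Levels are normalised log2 intensities, in which 1 unit is a doubling. An offset of 50 was added in the background correction, and it compresses differences between dim spots. The processed intensities of the scanner software (Agilent Feature Extraction), which have no such offset, are therefore given beside the levels of the transcripts. Feature Extraction also marks each spot as well above background or not. A transcript is described as seen in a fish where at least 1 of its 4 spots passed that mark. A level in a group in which no spot passed it has only an upper bound. Differences from such a level are given as at least so many fold. These bounds compare group means, without the dye term, and leave out the spread between fish. Where the dim group's own level exceeded the lowest probe well above background, the bound is the plain ratio of measured means. Such a bound can exceed the tested difference. Differences were tested with limma over all sequences of a tissue, with adjusted p (Benjamini-Hochberg) under 0.05 as the threshold.

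In the liver, ACC1tv2 gave the widest range of the 3 transcripts. It was highest with HLL, lower with LLH and MHL, and not well above background in any starved fish. The 4 HLL livers read 6.93, 7.18, 7.12 and 7.85 on the log2 scale for fish 1 to 4, with a mean of 7.27 ± 0.40 (SD, n = 4). The LLH livers read 6.47, 6.75, 6.54 and 6.48, and the MHL livers 6.45, 6.20, 6.42 and 6.52. The starved livers read 6.11, 5.91, 6.15 and 6.10. All 4 HLL fish lay above the 12 other fish, and all 4 starved fish lay below the 12 fed fish. Over the array, 0.666% of the sequences had all HLL fish above all others, and 5.78% had all starved fish below all fed fish. Of the 16 ACC1tv2 spots per group, 16 were well above background with HLL, 14 with LLH, 9 with MHL and 0 in starved fish. Under the looser mark of the software, positive and significant, all spots of the fed groups and 11 of the 16 starved spots passed.

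**Figure D1:**
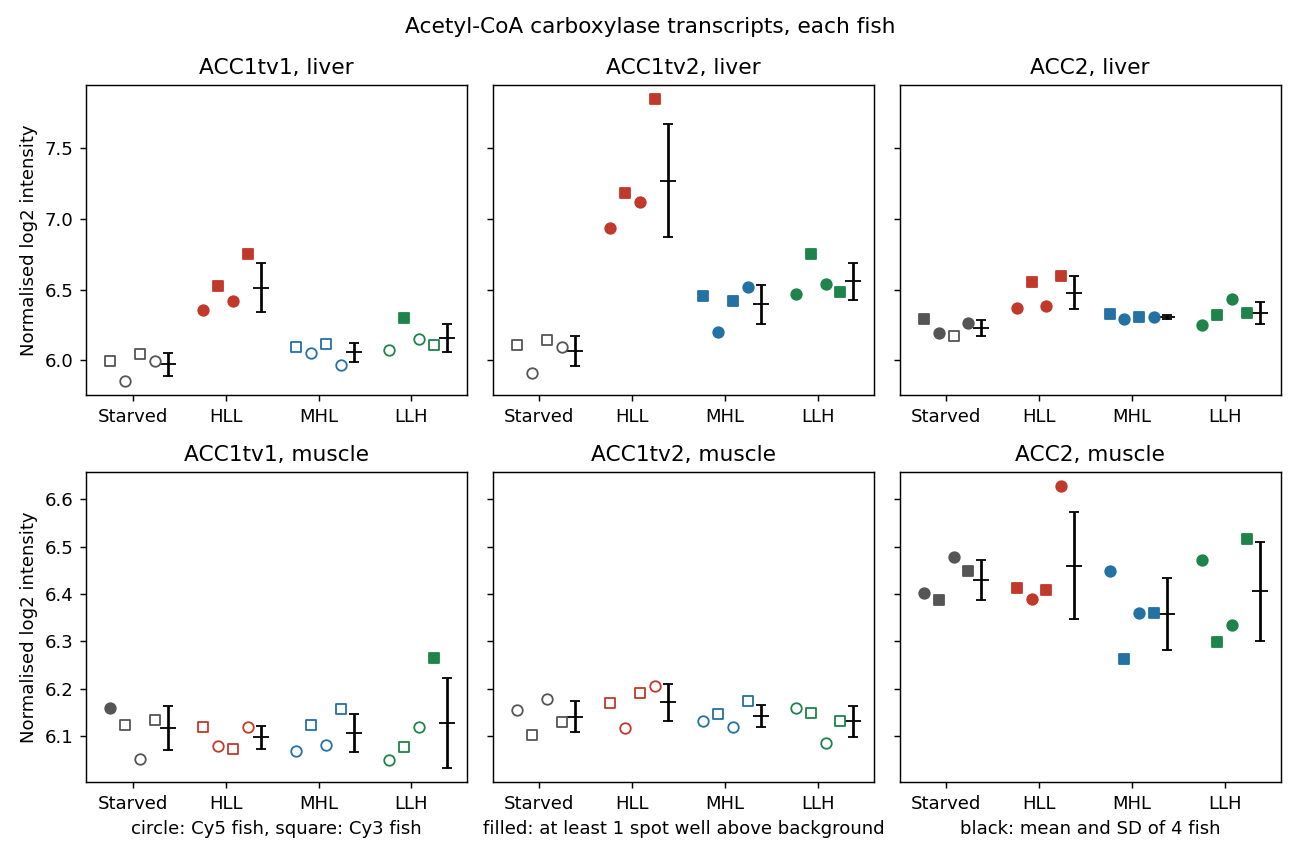
Normalised log2 intensity (y axis) of each fish by group (x axis) for ACC1tv1, ACC1tv2 and ACC2 in liver (top) and muscle (bottom); the rows have different y scales. Circles are Cy5 and squares Cy3 fish, filled points have at least 1 spot well above background, and black marks give the mean and SD of 4 fish. In liver the 4 HLL fish stand above all others for ACC1tv1 and ACC1tv2, while in muscle the groups overlap.

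The processed intensities of ACC1tv2 showed the same order of groups. Probe 2 averaged 114 ± 44.6 with HLL, 44.7 ± 18.8 with LLH, 17.6 ± 2.18 with MHL and 7.05 ± 3.0 in starved fish (SD, n = 4). Within HLL the single fish read 72.6, 138, 80.6 and 165, and the starved fish read 8.69, 3.27, 6.17 and 10.1. The highest starved liver was thus below the lowest MHL liver, at 16.4, and far below the lowest HLL liver. In the normalised levels, 11.5% of the sequences of the array had all starved below all MHL livers. The processed intensities are not scaled between arrays, and no starved spot was well above background. HLL fish 1 and 3, which carried Cy5, read lower than HLL fish 2 and 4, which carried Cy3. The HLL fish split alike for probe 2 of ACC1tv1 and probe 1 of ACC2. Their SDs of processed intensity therefore also hold any difference between dyes and arrays.

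Probe 1 averaged 117 ± 67.0 with HLL, 39.1 ± 15.5 with LLH, 26.1 ± 18.0 with MHL and 8.05 ± 2.93 in starved fish. The MHL mean of this probe rested on 1 spot of fish 4, which read 101 where the other spot of the probe in the same fish read 5.05. Both channels of that spot were set to missing in an alternative chosen after the values were seen. ACC1tv2 then differed between MHL and HLL by -0.94, against -0.89 with the spot, and between starved and MHL fish by -0.23, against -0.29.

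ACC1tv1 was seen in the liver of HLL fish, in 1 LLH fish and in no other liver. The HLL livers read 6.35, 6.53, 6.42 and 6.75 on the log2 scale (mean 6.51 ± 0.17, SD, n = 4). The LLH livers read 6.07, 6.30, 6.15 and 6.11, the MHL livers 6.09, 6.05, 6.12 and 5.97, and the starved livers 5.99, 5.85, 6.04 and 5.999. All 4 HLL fish again lay above the 12 others. The starved fish overlapped with the MHL fish but lay below all 4 LLH fish, as did 10.1% of the sequences of the array.

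All the ACC1tv1 spots well above background in liver came from 1 of its probes. Probe 2 was well above background in 8 of 8 HLL spots, 2 of 8 LLH spots (those of fish 2) and in no MHL or starved spot. Its processed intensity averaged 70.0 ± 30.0 with HLL, 19.8 ± 10.72 with LLH, 6.86 ± 1.39 with MHL and 5.29 ± 1.63 in starved fish. Probe 1 was not well above background in any liver, with a highest reading of 11.9 in HLL fish 4. Under the looser mark, positive and significant, 5 of 8 HLL spots of probe 1 passed. So did 1 of 8 LLH, 0 of 8 MHL and 1 of 8 starved spots. What separates the probes in sequence is not given, so the mean over both probes, on which the tests of ACC1tv1 rest, is a mean over 1 seen and 1 unseen probe.

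ACC2 had a narrower range in the liver and was seen in all 4 groups, in every fed fish and in 3 of the 4 starved fish. The HLL livers read 6.37, 6.55, 6.39 and 6.599 on the log2 scale (mean 6.48 ± 0.12). The LLH livers read 6.25, 6.32, 6.44 and 6.33, and the MHL livers lay within 6.29 to 6.32. The starved livers read 6.29, 6.20, 6.17 and 6.26, and overlapped with the LLH and MHL livers. The HLL fish lay above all MHL fish, as in 4.08% of the sequences, and above all but 1 of the LLH fish.

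For ACC2 the signal also came mainly from 1 probe. Probe 1 was well above background in 8 of 8 HLL spots, 6 of 8 LLH spots, 6 of 8 MHL spots and 5 of 8 starved spots. Its processed intensity averaged 62.3 ± 24.3 with HLL, 38.9 ± 16.2 with LLH, 24.8 ± 2.66 with MHL and 25.3 ± 6.77 in starved fish. The starved fish read 29.5, 25.5, 15.6 and 30.4, and 3 of them lay within or above the range of the MHL fish, which was 20.9 to 26.7. Probe 2 averaged between 9.63 and 11.9 in the 4 groups, and only 1 spot of an HLL fish and 1 of a starved fish were well above background.

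**Figure D2:**
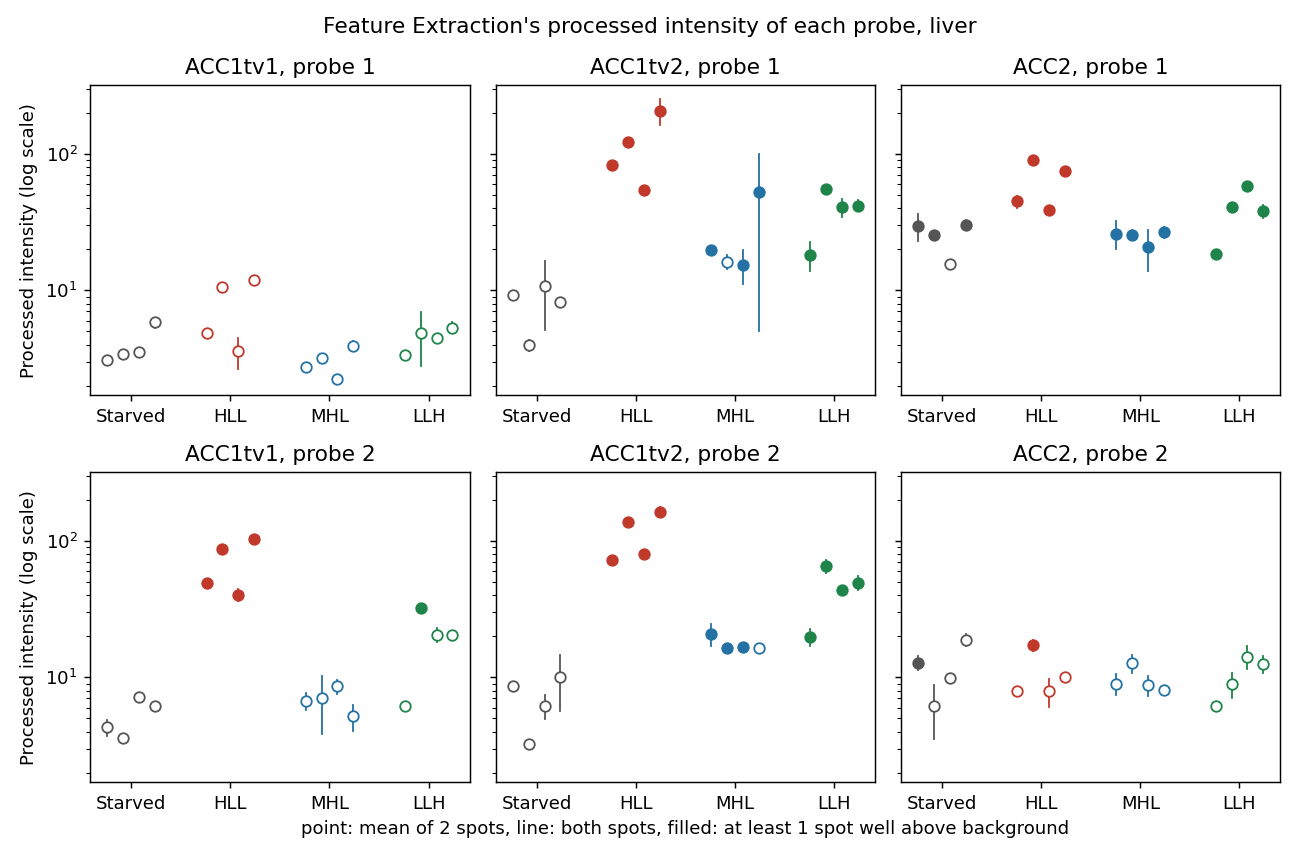
Processed intensity in liver (y axis, log scale) of probe 1 (top) and probe 2 (bottom) of each transcript by group (x axis). Each point is the mean of the 2 spots of a fish, the line joins its 2 spots, and filled points have at least 1 spot well above background. Both probes of ACC1tv2 order the groups alike, probe 1 of ACC1tv1 and nearly all of probe 2 of ACC2 stay near background, and the long line is MHL fish 4.

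Starvation was set against each diet first. Against HLL, all 3 transcripts were lower in starved livers, where 12.3% of all sequences were called lower. ACC1tv2 fell by 1.18 on the log2 scale (SE 0.13, adjusted p = 2.8e-05, limma), ACC1tv1 fell by 0.54 (SE 0.06, adjusted p = 3.4e-05) and ACC2 fell by 0.25 (SE 0.05, adjusted p = 0.0034). Since no starved spot of ACC1tv2 was well above background, HLL was at least 2.31-fold higher on the scale with the offset. The same bound was at least 5.95-fold with an offset of 0. For ACC1tv1, HLL was at least 1.45-fold above starved fish with the offset and at least 2.85-fold with an offset of 0. The call of ACC2 was lost when log ratios were fitted, at -0.26 (adjusted p = 0.11), with the authors' log ratios, at -0.46 (adjusted p = 0.11), and with probe 2 alone, at -0.022 (adjusted p = 0.81).

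Against LLH, only ACC1tv2 passed the threshold in starved livers, at -0.47 (SE 0.13, adjusted p = 0.016, limma), where 10.9% of all sequences were called lower. LLH was at least 1.41-fold higher with the offset and at least 2.56-fold with an offset of 0. Without LLH fish 3 the adjusted p was 0.057. ACC1tv1 stood at -0.17 (SE 0.06, adjusted p = 0.053), with 1 LLH fish well above background. It passed the threshold with an offset of 0, with the processed intensities and with probe 2 alone. ACC2 stood at -0.11 (SE 0.05, adjusted p = 0.18).

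Against MHL, none of the 3 transcripts passed, where 11.2% of all sequences were called lower. ACC1tv2 stood at -0.29 (SE 0.13, adjusted p = 0.14, limma), although it was well above background in 9 of 16 MHL spots and in no starved spot. With an offset of 0 the difference was -0.88 (adjusted p = 0.013), and with the processed intensities -1.80 (adjusted p = 6.3e-04), so both passed. At the offset of 50 it also passed with median centring, with the fit over both tissues and without HLL fish 4. Why the call changed was not tested. The discordant spot of MHL fish 4 was kept in these fits, and it raises the MHL level. With that spot set to missing the difference was -0.23 (adjusted p = 0.18, limma) with the offset of 50. ACC2 stood at -0.08 (95% interval -0.20 to 0.04), and for ACC1tv1 no fold is given because neither group had a spot well above background. No array paired a starved with an MHL fish, so this comparison runs through the other groups.

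Against the mean of the 3 diets, ACC1tv2 fell by 0.65 (SE 0.10, adjusted p = 4.1e-04, limma), ACC1tv1 by 0.26 (SE 0.05, adjusted p = 0.0012) and ACC2 by 0.14 (SE 0.04, adjusted p = 0.022). No starved spot of ACC1tv1 or ACC1tv2 was well above background, so the sizes of their falls are not exact. ACC1tv1 was also not seen with MHL and was seen in only 1 LLH fish. All 3 transcripts were thus called lower, beside 14.1% of all sequences, and their median difference was -0.26, against -0.0027 over all sequences. This mean pools unlike diets: 3 transcripts were called lower against HLL, 1 against LLH and 0 against MHL. ACC1tv1 and ACC1tv2 are named as variants of ACC1 and correlated at r = 0.97 in liver, so they do not count as separate results. The call of ACC2 was lost without starved fish 2 (adjusted p = 0.066) and without starved fish 3 (adjusted p = 0.11). It was also lost with the processed intensities, at -0.54 (adjusted p = 0.070), with log ratios, at -0.16 (adjusted p = 0.20), with the authors' log ratios, at -0.32 (adjusted p = 0.17), and with probe 2 alone, at -0.022 (adjusted p = 0.75). The call of ACC1tv1 was lost with log ratios, at -0.20 (adjusted p = 0.088), and with its unseen probe 1 alone, at -0.069 (adjusted p = 0.16).

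The diets were then set against each other. Both ACC1 transcripts were lower with MHL than with HLL, and only 0.817% of all sequences were called lower there. ACC1tv2 fell by 0.89 (SE 0.13, adjusted p = 0.0096, limma) and ACC1tv1 by 0.47 (SE 0.06, adjusted p = 0.0063). ACC2 stood at -0.17 (SE 0.05, adjusted p = 0.14). The call of ACC1tv2 was lost without MHL fish 3 (adjusted p = 0.058). The difference of ACC1tv2 lay at the 0.761 percentile of the differences of all sequences. The HLL fish were at least 1.37-fold above the MHL fish for ACC1tv1, of which no MHL spot was well above background, and at least 2.24-fold with an offset of 0.

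Both ACC1 transcripts were also lower with LLH than with HLL, where 1.12% of all sequences were called lower. ACC1tv2 fell by 0.71 (SE 0.13, adjusted p = 0.020, limma) and ACC1tv1 by 0.37 (SE 0.06, adjusted p = 0.015), and ACC2 stood at -0.14 (SE 0.05, adjusted p = 0.22). The call of ACC1tv2 was lost without LLH fish 1 (adjusted p = 0.058). No array paired an LLH with an HLL fish. With the Cy5 fish of array D read as LLH, the differences were -0.71 (adjusted p = 0.17) for ACC1tv2 and -0.35 (adjusted p = 0.18) for ACC1tv1, so these calls rest on the reading of that label. Without array D they stood at -0.79 (adjusted p = 0.035) and -0.40 (adjusted p = 0.027).

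The calls between diets also depended on the kind of fit. When the log ratios of the arrays were fitted in place of the separate channels, the difference of ACC1tv2 was -0.996 (adjusted p = 0.13) for MHL against HLL and -0.70 (adjusted p = 0.25) for LLH against HLL. In that fit 2 and 3 sequences of the whole array were called, compared with 389 and 552 in the fit of the channels. Between LLH and MHL no transcript was called, with differences of 0.18 (95% interval -0.09 to 0.46) for ACC1tv2, 0.10 (-0.03 to 0.23) for ACC1tv1 and 0.02 (-0.09 to 0.14) for ACC2, and 0.00396% of all sequences were called.

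**Figure D3:**
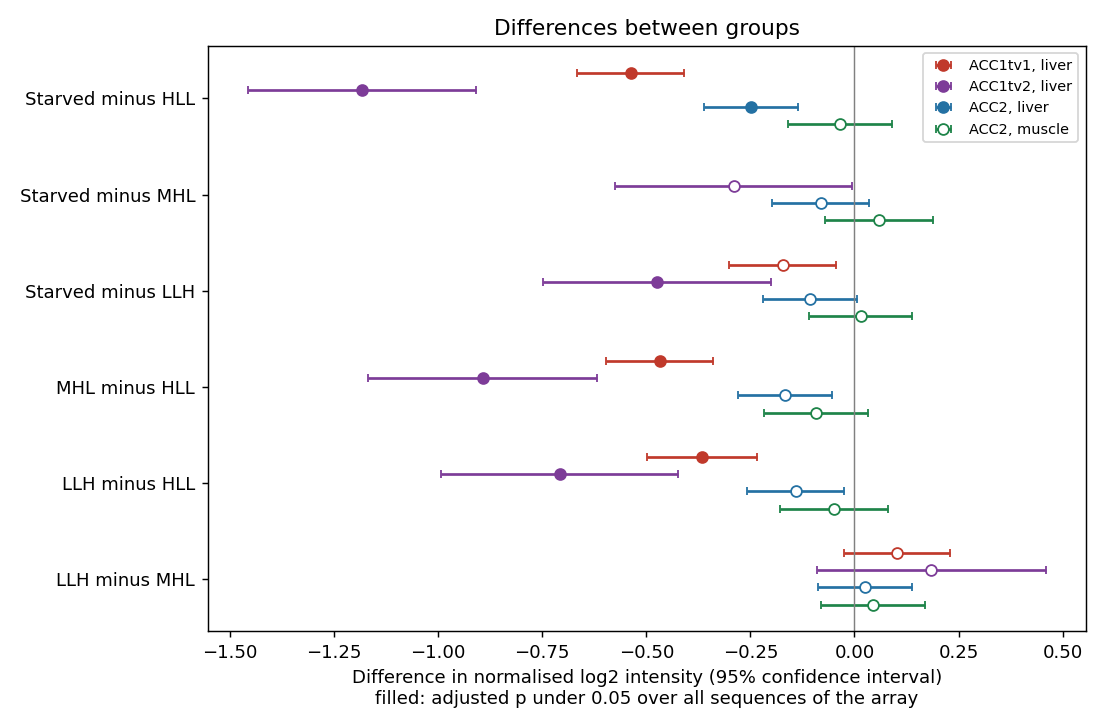
Difference in normalised log2 intensity between groups (x axis) for 6 comparisons (y axis), with 95% confidence intervals from limma. Colours give the transcript and tissue, and filled points have an adjusted p under 0.05. ACC1tv2 in liver stands farthest from 0 in each comparison with HLL, and all points of ACC2 in muscle are open.

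The probes were also fitted singly over all 49324 probes of the array with values in every liver. For starved against HLL fish, where 22.8% of the probes were called, probes 1 and 2 of ACC1tv2 stood at -1.10 and -1.27 (SE 0.15 and 0.12) and both were called. Probe 2 of ACC1tv1 stood at -0.92 (SE 0.09, adjusted p = 1.4e-05, limma). Probe 1 of ACC2 stood at -0.47 (SE 0.08, adjusted p = 7.3e-04) and probe 2 at -0.02 (SE 0.05). For MHL against HLL, where 1.13% of the probes were called, both probes of ACC1tv2 and probe 2 of ACC1tv1 were called, at -0.79, -1.0 and -0.79, and probe 1 of ACC2 stood at -0.35 (adjusted p = 0.053). For LLH against HLL the same 3 probes were called, at -0.69, -0.73 and -0.61, beside 1.72% of all probes. Probe 1 of ACC1tv1, not well above background in any liver, stood at -0.16 for starved against HLL fish (adjusted p = 0.012, limma), and was not called for MHL (-0.15) or LLH (-0.12) against HLL.

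Single arrays carry 2 fish in the same hybridisation, and their ratios need no scaling between arrays. The starved fish read lower for ACC1tv2 on the arrays shared with an HLL or an LLH fish, but no size is given because none of its starved spots was well above background. The mean log2 ratio of processed intensity over the 4 spots of ACC1tv2 was -3.25 and -2.08 on the arrays of an MHL and an HLL fish. The first of these holds MHL fish 4, whose discordant spot was its only one well above background. On the arrays of an MHL and an LLH fish the ratio was 0.11 and -1.88. For ACC2 the starved and HLL arrays read 0.02 and -1.72, and the starved and LLH arrays 0.13 and -1.19. The mean over both probes thus showed almost no difference on 1 array of each kind. The one against HLL was array D, where probe 1 read 29.5 in the starved and 45.0 in the HLL fish. On the one against LLH, probe 1 read 30.4 in the starved and 38.2 in the LLH fish. Probe 2 went the other way, at 12.8 against 7.92 and 18.8 against 12.6. Of these probe 2 spots only 1, in starved fish 1, was well above background. The array at -1.19 holds starved fish 3, which had no ACC2 spot well above background.

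The transcripts were also set against each other within each liver. The level of 1 transcript minus that of another was taken in each fish, and the 4 starved fish were compared with the 12 fed fish by an exact permutation test over 1820 arrangements (two-sided, smallest possible p 5.5e-04, 3 pairs adjusted together). The fed fish pool 3 unlike diets, and HLL fish stood farthest from the starved fish in the pairs with ACC1tv2. For ACC1tv2 minus ACC2 the SD was 0.37 in fed and 0.11 in starved fish. Starved fish were not tested against single diets here. ACC1tv1 minus ACC1tv2 was higher in starved fish by 0.41 (p = 0.0055, adjusted p = 0.016, exact permutation test). Neither transcript had a starved spot well above background, so each fall is a lower bound and this difference does not rank their sizes. With probe 2 of each alone it was higher by 0.26 (adjusted p = 0.0082, exact permutation test), and with probe 2 of ACC1tv1 and probe 1 of ACC1tv2 by 0.16 (adjusted p = 0.082, exact permutation test). ACC1tv2 minus ACC2 was lower in starved fish, with a difference of -0.54 (p = 0.015, adjusted p = 0.022, exact permutation test). With probe 1 of ACC2, it was -0.36 and -0.46 for probes 1 and 2 of ACC1tv2 (adjusted p = 0.025 and 0.020, exact permutation tests). With probe 2 of ACC2, mostly not well above background, it was -0.62 and -0.71 (adjusted p = 0.024 and 0.021, exact permutation tests). The difference of ACC1tv1 minus ACC2 was -0.13 (p = 0.13, exact permutation test). It turned to 0.19 (adjusted p = 0.025, exact permutation test) with probe 1 of each, of which that of ACC1tv1 was not seen in any liver. With 3 starved fish left, the first of these results had an adjusted p of 0.053 without starved fish 2, and the result of ACC1tv2 minus ACC2 had one of 0.053 without starved fish 1, 0.066 without fish 2 and 0.053 without fish 4 (exact permutation tests).

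**Figure D4:**
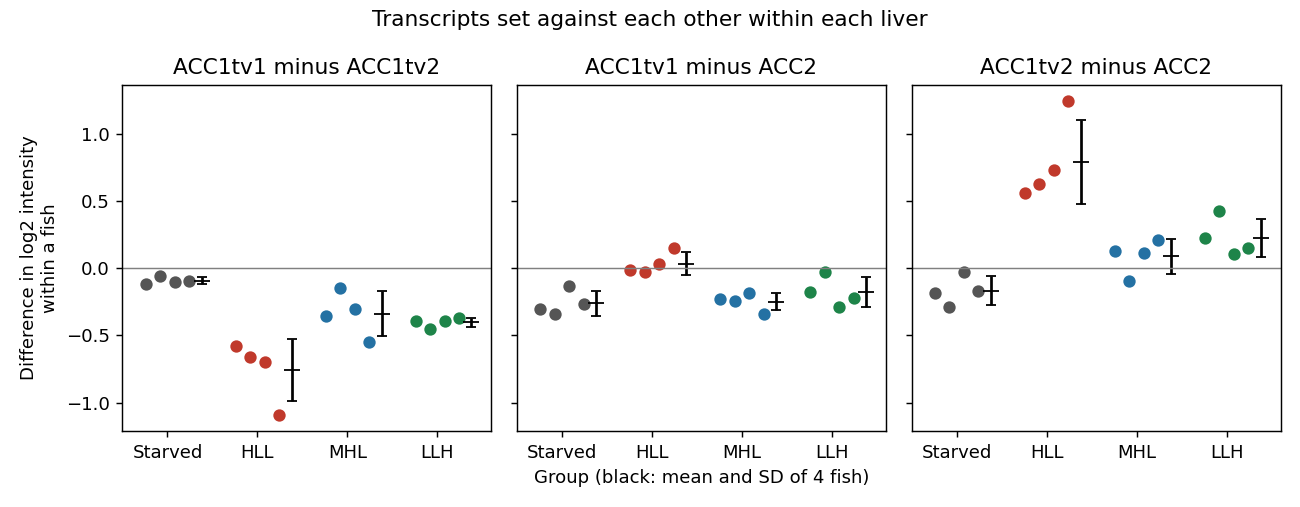
Difference in normalised log2 intensity between a pair of transcripts within each liver (y axis, not comparable between panels) by group (x axis). Points are fish and black marks the mean and SD of 4 fish; starved fish lie close together in the panel of ACC1tv1 minus ACC1tv2, and HLL fish stand farthest from them in the panels that hold ACC1tv2.

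In the muscle, ACC1tv2 was not seen and ACC1tv1 passed the mark in only 2 of 16 fish. No spot of ACC1tv2 was well above background in any of the 16 muscle samples, and the fish read between 6.08 and 6.21 on the log2 scale. ACC1tv1 had 1 such spot in each of 2 fish, LLH fish 4 and starved fish 1, which were hybridised together. It was the same spot of probe 1, at 66.3 and 45.6, while the other spot of that probe read 5.64 and 6.18. No fold is given for either transcript in this tissue.

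ACC2 was seen in the muscle of all 16 fish. The starved fish read between 6.39 and 6.48 (mean 6.43 ± 0.04, SD, n = 4), the HLL fish 6.41, 6.39, 6.41 and 6.63 (mean 6.46 ± 0.11), the LLH fish between 6.30 and 6.52 (mean 6.41 ± 0.10) and the MHL fish between 6.26 and 6.45 (mean 6.36 ± 0.08). All groups overlapped. Spots well above background numbered 12 of 16 in starved fish, 10 with HLL, 8 with LLH and 7 with MHL. The processed intensity of probe 1 averaged 46.2 ± 12.3 in starved fish, 41.9 ± 22.9 with HLL, 38.1 ± 23.4 with LLH and 23.5 ± 8.92 with MHL. Probe 2 averaged 23.95 in starved fish, 19.75 with HLL, 12.8 with LLH and 7.17 with MHL (SD 6.2, 15.2, 9.69 and 3.9). It was well above background in 4 starved and 0 MHL fish. All starved fish lay above all MHL fish in processed intensity, at 34.7 to 62.15 against 14.1 to 32.5 for probe 1. For probe 2 they read 16.3 to 29.25 against 4.65 to 13.0. How many sequences do so was not counted, and no array paired these groups. Starved fish had the highest mean of both probes, which are not scaled between arrays, and HLL fish the highest mean of the normalised levels.

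Starved fish differed from the mean of the fed fish in muscle by 0.01 for ACC2 (95% interval -0.09 to 0.12, adjusted p = 0.87, limma). The differences from HLL, MHL and LLH were -0.03, 0.06 and 0.01, and none of the comparisons between diets passed the threshold either. These values and the interval hold for the scale with the offset, which compresses differences between dim spots. With an offset of 0 the difference from the mean was 0.09 (SE 0.14). Those from HLL, MHL and LLH were then -0.05, 0.24 and 0.08. With the processed intensities they were 0.11, 0.64 and 0.37, and the difference from the mean was 0.37 (SE 0.26). None of these passed the threshold. In the fit with the offset, 36.6% of all sequences were called against the mean of the diets, 34.3% against HLL, 30.7% against MHL and 27.9% against LLH. Between diets the shares were 0.0159% for MHL against HLL, 0.238% for LLH against HLL and 0% for LLH against MHL. In the last of these limma called 0 sequences after adjustment, beside 1566 at an unadjusted p under 0.05 and between 0 and 306 under the alternative settings.

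The tissues were set against each other in 1 fit of all 32 samples. In fed fish, ACC1tv2 read 6.73 ± 0.44 in liver and 6.09 ± 0.04 in muscle, and ACC2 6.39 ± 0.10 and 6.39 ± 0.11 (SD, n = 12). These levels are a description, because tissue and slide cannot be told apart. The effect of starvation (starved minus mean of the diets) was higher in muscle than in liver by 0.62 for ACC1tv2 (SE 0.10, adjusted p = 2.2e-05, limma) and by 0.26 for ACC1tv1 (SE 0.06, adjusted p = 0.0011), where 37.8% of all sequences were called. In muscle ACC1tv2 had no spot well above background and ACC1tv1 had 1 in each of 2 fish, so an effect there could not be measured and these differences restate the fall in liver. For ACC2 the difference was 0.16 (SE 0.07, adjusted p = 0.060), which passed the threshold with the processed intensities, with median centring and with quantile normalisation.

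Of the other genes of the list drawn up for malonyl-CoA and fatty acid metabolism, PKL and PKM alone carry a symbol on the array, and the alanine aminotransferases mALT, cALT1 and cALT2 are the only further sequences with one. Of these 5, PKL, cALT1 and cALT2 were called lower in starved livers against each diet and against their mean, and none was called higher. Of all sequences, 12.3% were called lower against HLL, 11.2% against MHL, 10.9% against LLH and 14.1% against the mean. The levels of cALT1 and cALT2 fell almost alike, at -1.84 and -1.87 against HLL. In muscle, starved fish against the mean of the fed groups, 1 was called higher and 1 lower, beside 19.2% and 17.4% of all sequences. Between diets in liver none of the 5 was called for MHL against HLL. There cALT1 and cALT2 stood at -0.82 and -0.83 (adjusted p = 0.088 and 0.093, limma), beside -0.89 for ACC1tv2. PKL, PKM and mALT stood at 0.11, -0.05 and 0.17. For LLH against HLL 2 of the 5, the cytosolic alanine aminotransferases cALT1 and cALT2, were called lower. They stood at -0.99 and -1.01 (adjusted p = 0.043 and 0.047, limma), where 1.12% of all sequences were called lower. Neither call was examined with array D read as LLH or with log ratios, where the ACC1 calls of this comparison were lost.

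By Pearson correlation over the 16 livers, after removing the dye, the sequence whose levels were most like those of ACC1tv2 was ACC1tv1 (r = 0.97), followed by isotig05665 (r = 0.92). For ACC2 in liver they were isotig08078 (r = 0.90) and isotig03635 (r = 0.90), and in muscle isotig17681 (r = 0.88) and IFXJFUR02HQIR0 (r = 0.87). ACC2 and ACC1tv2 correlated at 0.88 in liver and 0.49 in muscle, where ACC1tv2 was at background. In liver ACC1tv1 was well above background in only 5 of the 16 samples, so its correlation rests partly on levels near background. All of these values share the same 16 samples and the difference between the groups, and the isotigs carry no annotation.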

How the data were processed

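RNA of liver and white muscle from 4 fish per group was hybridised on 16 two-colour Agilent arrays. The scanner files that the authors deposited, from Agilent Feature Extraction 10.7, hold raw median intensity (spot and local background), processed intensity and a log10 ratio, Cy5 over Cy3. The deposited table of the authors' normalised log2 ratios has 1 value per probe. Its rows were matched in reverse order of the feature numbers (correlation with the scanner ratios of at least 0.80 on each array), it was used only as an alternative, and its column medians lay between -0.0044 and 0.0061.

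Fits used R 4.3.3 and limma 3.58.1, after the Loess, Aquantile and limma steps that the methods name. Background was corrected with normexp (offset 50), control spots were removed and outlier spots set to missing, and no member spot carried such a flag. Channels were normalised by loess within and Aquantile between the arrays of a tissue. Spots, then probes after removing each probe's mean, were averaged. The model of the log2 intensities had group and dye as terms and the array as random block (correlation 0.164 in each tissue), and p-values were adjusted over 25225 sequences in liver and 25222 in muscle. The scripts were tested on simulated data. The number of fish and arrays limits the precision.

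A bound takes the bright group's mean over that of the dim group, in which each fish has the higher of its own level and the lowest level of a probe well above background. All 3 transcripts were named in both tissues, with the 2 sequences most like each that was seen in 12 or more samples. The members, lists and tests were chosen with earlier results of these data known. Planned marker and pathway lists could not be paired with array identifiers beyond PKL and PKM.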

Additional observations from a re-analysis of the deposited data

Results flagged for a closer look

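ACC2 in the muscle of HLL fish 4 read 6.63 on the log2 scale, while the other 3 HLL fish read 6.39 to 6.41. Its gap to the nearest fish was 0.908 of the range of the group, above Dixon's critical value for 4 values. It was 1 of 24 groups of fish examined, and chance marks about 1 in 20 groups. Without this fish the difference between starved and HLL muscle was 0.02 in place of -0.03, and neither passed the threshold.

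The effect of starvation in muscle minus that in liver passed the threshold for both ACC1 transcripts. It was 0.62 for ACC1tv2 (adjusted p = 2.2e-05, limma) and 0.26 for ACC1tv1 (adjusted p = 0.0011), and in muscle ACC1tv2 had no spot well above background and ACC1tv1 had 1 in each of 2 fish. An effect in muscle could not be measured at these levels, and the values restate the fall in liver. The tissues lay on different slides, and tissue and slide cannot be told apart.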

How the results depend on the processing

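In all, 33 results were recomputed, which gave 1108 values, of which 1025 kept the direction and the side of the threshold. The differences of ACC1tv1 and ACC1tv2 between starved and HLL livers and of ACC1tv2 between starved fish and the mean of the diets kept both under every alternative run. Values here are log2 differences. The number of fish and, for ACC1, spots near background limit what can be called, and the cause of the changes below was not tested unless the alternative itself uses fewer fish or another probe.

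In the liver, 8 values were no longer called when log ratios were fitted. ACC2 stood at -0.26 against HLL and -0.16 against the mean of the diets, ACC1tv1 at -0.20 against that mean, and ACC1tv2 at -0.37 against LLH. For MHL and LLH minus HLL, ACC1tv1 stood at -0.54 and -0.42 and ACC1tv2 at -0.996 and -0.70. With the authors' log ratios the calls lost were ACC2 against HLL (-0.46) and against the mean (-0.32), and ACC1tv1 and ACC1tv2 for MHL minus HLL (-1.03 and -1.55) and LLH minus HLL (-0.79 and -1.03). With array D read as LLH, LLH minus HLL was no longer called for ACC1tv1 (-0.35) and ACC1tv2 (-0.71), while ACC1tv1 in starved against LLH fish passed (-0.23).

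Starved minus LLH passed for ACC1tv1 with an offset of 0 (-0.63), processed intensities (-1.08), median centring (-0.28), the filter on dim probes (-0.31), the brightest probe (-0.30), probe 2 alone (-0.30) and the fit over both tissues (-0.18). Starved minus MHL passed for ACC1tv2 with an offset of 0 (-0.88), processed intensities (-1.80), median centring (-0.38) and the fit over both tissues (-0.26). The processed intensities lost ACC2 against the mean of the diets (-0.54). ACC2 for MHL minus HLL passed with the filter (-0.36). Probe 1 alone lost ACC1tv2 against LLH (-0.41). Probe 2 alone lost ACC2 against HLL and the mean (-0.022 each) and turned its MHL minus HLL (0.021) and LLH minus MHL (-0.041). ACC2 between tissues passed with processed intensities (0.91), median centring (0.19) and quantile normalisation (0.18). ACC1tv1 minus ACC2 passed with an offset of 0 (-0.51, adjusted p = 0.047, exact permutation test), and probe 2 of ACC1tv1 against probe 1 of ACC1tv2 did not (0.16). Probe 1 of ACC1tv1, with no spot well above background in liver, lost the calls of that transcript against the mean of the diets (-0.069), for MHL minus HLL (-0.15) and for LLH minus HLL (-0.12), and turned ACC1tv1 minus ACC2 with probe 1 of each (0.19, adjusted p = 0.025, exact permutation test). No alternative is given for ACC1tv1 in starved minus MHL livers, where neither group had a spot well above background.

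In muscle no value of ACC2 was called, and several near 0 changed sign. Starved minus HLL became 0.11 with processed intensities, 0.0022 with quantile normalisation and 0.015 with probe 2. Starved minus MHL was -0.0070 with log ratios. Starved minus LLH was -0.032 with log ratios, -0.028 without normalisation between arrays and -0.040 with the brightest probe and with probe 1. Starved minus the mean was -0.031 with log ratios, -0.013 without normalisation between arrays, -0.036 with the brightest probe and -0.035 with probe 1.

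Leaving out each fish in turn gave these ranges in liver. ACC1tv1 ranged from -0.22 to -0.15 for starved minus LLH, and passed without starved fish 4, HLL fish 1, HLL fish 4 or LLH fish 4. ACC1tv2 ranged from -0.55 to -0.44 for starved minus LLH (lost without LLH fish 3), from -0.34 to -0.23 for starved minus MHL (passed without HLL fish 4), from -0.97 to -0.72 for MHL minus HLL (lost without MHL fish 3, adjusted p = 0.058) and from -0.79 to -0.55 for LLH minus HLL (lost without LLH fish 1, adjusted p = 0.058). ACC2 ranged from -0.17 to -0.11 for starved minus the mean (lost without starved fish 2 or 3) and from -0.022 to 0.049 for LLH minus MHL (turned without LLH fish 3). In muscle ACC2 ranged from -0.062 to 0.021 for starved minus HLL, from -0.025 to 0.072 for starved minus LLH, from -0.0029 to 0.039 for starved minus the mean, from -0.10 to 0.0019 for LLH minus HLL and from -0.0041 to 0.078 for LLH minus MHL, and the signs turned without HLL fish 4 or LLH fish 2, 3 or 4. Its difference between tissues ranged from 0.13 to 0.19 and passed without any of 6 of the 32 samples (liver starved fish 4 and HLL fish 1, muscle starved fish 1, MHL fish 1, HLL fish 4 and LLH fish 4). The within-fish differences ranged from 0.35 to 0.44 for ACC1tv1 minus ACC1tv2 (lost without starved fish 2) and from -0.58 to -0.46 for ACC1tv2 minus ACC2 (lost without starved fish 1, 2 or 4).

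Fish of the same number shared all 8 liver arrays and 4 of the 8 muscle arrays. Deviations of same-numbered fish from their group means correlated between -0.26 and 0.15 in liver and between -0.19 and 0.48 in muscle. For fish of different numbers the ranges were -0.18 to 0.18 in liver and -0.49 to 0.36 in muscle. On shared muscle arrays the median was 0.098 for the same number and -0.103 for different numbers. The ranges overlapped, and whether the numbers name matched fish was not tested. With the fish number as a replicate block, ACC1tv2 stood at -1.20 for starved minus HLL liver (adjusted p = 2.0e-04) and no call of a member changed. The number of sequences called changed more. Ranges were taken over the alternatives other than leaving out 1 fish or using probe 1 or probe 2 alone. They include the brightest probe, the filter on dim probes and the fit without array D. The number called ranged from 3233 to 9295 for starved minus HLL liver (6393 as reported) and from 4061 to 11052 for starved minus the mean (7316). It ranged from 2 to 1036 for MHL minus HLL (389) and from 1 to 1001 for LLH minus HLL (552). With the looser mark of Feature Extraction, positive and significant, ACC1tv2 passed in 11 of 16 starved, 16 of 16 MHL, 16 of 16 LLH and 16 of 16 HLL liver spots, and ACC1tv1 in 5, 6, 9 and 13.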
